A study of Mus musculus with 12 samples.

Results

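Solute carriers are membrane proteins that move ions, nutrients and metabolites across the plasma membrane and across the membranes of organelles. The genes described here have symbols of the form *Slc*, number, a, number, in a study of the embryonic mouse forelimb with 12 libraries. They were chosen by their measured levels: each was at 5 NRPKM or above in 3 libraries or more. NRPKM is RPKM, reads scaled to transcript length and library size, normalized further between libraries by the authors, so that levels of different genes can be set side by side. Of 36186 rows, 333 carried such a symbol and 148 of these passed the filter. The rule leaves out by name the main carriers of glucose, lactate and phosphate, the erythroid anion exchanger and the sulfate carrier *Slc26a2*, which takes away 6 rows, and 142 genes remain. The other 185 rows with such a symbol did not pass the filter. The pattern takes only symbols with the letter a after the family number, so families whose members carry other letters are represented in part. The filter looked at levels in all groups alike, and 1 member, *Slc7a8*, passed through the hypertrophic libraries only. Other members also leaned on groups where they are high. Among them, *Slc9a2* reached 5 NRPKM only in the hypertrophic libraries and proliferative replicate 1, and *Slc13a5* only in the proliferative and hypertrophic libraries. *Slc30a2* did so only in the hypertrophic libraries and resting replicate 1, and *Slc46a1* in the hypertrophic libraries and proliferative replicate 3. *Slc26a1* needed its resting values to pass, and *Slc6a9* and *Slc30a8* their proliferative values.

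Cartilage has no blood vessels of its own, so its cells depend on carriers for the glucose, amino acids, sulfate and metal ions that reach them through the matrix. Chondrocytes make large amounts of sulfated and glycosylated matrix, and as they enlarge they raise their metabolism and prepare the matrix for mineral. Most carriers of family 25, classed here as mitochondrial by family, lie in the inner mitochondrial membrane. Family 30 moves zinc out of the cytoplasm, and family 39 moves it in.

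All samples came from forelimb zeugopods, the segment of radius and ulna, of mice on a mixed 129/CD-1 background at E15.5. In WT embryos, laser capture microdissection (LCM) took the resting, proliferative and hypertrophic compartments of the cartilage, with 3 libraries from each. The other 3 libraries came from *aadd* mutants, homozygous for first-exon frameshifts in 6 genes (*Hoxa9,10,11* with *Hoxd9,10,11*), whose zeugopod cartilage was small and histologically uniform and was taken whole. In the GEO labels the hypertrophic compartment is named hyperproliferative, and resting is the compartment entered for *aadd*. The material was mostly chondrocytes with some perichondrial cells. The paper's comparisons ask how expression changes from resting to proliferative to hypertrophic cartilage, and how the mutant cartilage differs from WT resting cartilage. In tissue samples of this kind, fewer cells of a type and less RNA per cell cannot be told apart.

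The files gave no read counts. Read from the lowest values of genes with a single coding exon, 1 read on 1 kb was worth 0.308 to 0.528 NRPKM. If the values were plain RPKM, the libraries would hold about 1894367 to 3248234 reads. The further scaling between libraries may shift that figure by an unknown factor. The summed level of 10 hypertrophic chondrocyte markers followed the order of the labels. It was 108 to 131 NRPKM in WT resting, 664 to 945 in WT proliferative, 1840 to 3844 in WT hypertrophic and 73.0 to 101 in *aadd*. Single markers differed: *Vegfa* was at 28.1 to 57.6 in WT resting and 19.7 to 22.5 in proliferative. Hypertrophic replicates 2 and 3 stood apart from replicate 1. *Mmp13* was at 735 and 661 NRPKM in replicates 2 and 3 and at 3.05 in replicate 1. *Spp1* was at 1083 and 979 against 24.1. Replicate 1 had the highest *Ihh* (56.3) and *Pth1r* (158) of the 12 libraries. Replicates 2 and 3 summed to 1308 and 963 NRPKM over 10 osteoclast markers against 40.9 to 70.4 in the other 10 libraries, to 304 and 212 over 10 endothelial markers against 5.0 to 37.3, and to 710 and 1008 over 10 cartilage matrix genes against 2473 to 5293. The osteoclast genes *Acp5*, *Ctsk* and *Mmp9* were at 246, 300.1 and 422 NRPKM in replicate 2 and at 2.92, 15.9 and 10.3 in replicate 1. Over the 9 macrophage markers in the table the 2 libraries summed to 286 and 230 NRPKM against 16.2 to 45.5 elsewhere, but *C1qa* was at 0.285 and 0 and *Fcgr1* at 1.19 and 0.258. The part of these cells in the results below was not tested, and values without replicate 1 are given beside the hypertrophic results. Sensory receptor and keratin-associated genes, from which the depth was read, differed too: between 138 and 593 of 1365 were above 0, with 138 and 205 in hypertrophic replicates 3 and 2, 167 in *aadd* replicate 1, 577 and 570 in *aadd* replicates 2 and 3, 186 to 387 in WT resting and 404 to 593 in the proliferative libraries and hypertrophic replicate 1. These values are set beside the low members that follow the same order.

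Promoters were available for 107 of the 142 members in the RefSeq table (build GRCm38.p6), 146 sequences in all. The promoters of *Slc13a5* and *Slc30a1* are printed because the first is the member called in all 4 comparisons and the second is one of the carriers that separates the hypertrophic libraries. Each is the 250 bases before a start, written 5′ to 3′ on the gene's strand, in lower case with motif matches in capitals. For *Slc13a5*, on the minus strand, the windows are chr11:72266605-72266854 and chr11:72267162-72267411. The RUNX core in the form TGTGGT, searched on both strands, was in neither. Other forms of the core were not searched for. The downstream window printed below holds accgca, the reverse complement of the form TGCGGT. How often that form occurs in other windows was not counted, and its part was not tested. RUNX factors act in maturing chondrocytes. The form searched was in 14.0% of 32851 windows of this length and in 13.0% of the 146 windows of members. For *Slc30a1*, on the plus strand at chr1:191906531-191906780, the core of the metal response element (TGCACNC or TGCGCNC, both strands), which the zinc sensor MTF-1 binds, matched at 43 bases before the start. That core was in 21.4% of all windows and in 27.4% of those of members, so a match is common.
Slc13a5, downstream start: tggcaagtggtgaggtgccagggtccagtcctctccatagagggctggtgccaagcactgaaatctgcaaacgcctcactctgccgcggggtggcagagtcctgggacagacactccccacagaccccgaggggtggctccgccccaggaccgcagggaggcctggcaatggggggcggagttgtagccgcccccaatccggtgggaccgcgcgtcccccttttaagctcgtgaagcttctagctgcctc
Slc13a5, upstream start: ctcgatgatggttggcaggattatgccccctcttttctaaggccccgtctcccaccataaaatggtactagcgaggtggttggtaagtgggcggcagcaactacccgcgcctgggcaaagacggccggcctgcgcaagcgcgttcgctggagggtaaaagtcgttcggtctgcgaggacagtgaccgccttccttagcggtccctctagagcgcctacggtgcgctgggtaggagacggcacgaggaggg
Slc30a1: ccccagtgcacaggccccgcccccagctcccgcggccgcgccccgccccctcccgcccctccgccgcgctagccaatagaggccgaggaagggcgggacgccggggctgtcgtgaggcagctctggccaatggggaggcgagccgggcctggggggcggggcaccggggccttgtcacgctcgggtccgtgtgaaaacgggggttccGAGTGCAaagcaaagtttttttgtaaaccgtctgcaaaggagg

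The 142 members were sorted into 15 substrate classes by family. The largest were 29 mitochondrial carriers, 26 carriers of amino acids and peptides and 16 of zinc. These were 61.7%, 44.1% and 66.7% of the rows of their families in the table, against 13.0% for sulfate, phosphate and other anions and 18.2% for organic ions and urea. Mean levels over the 12 libraries ran from 2.49 to 106 NRPKM with a median of 13.1. Among the highest were the ADP/ATP carrier *Slc25a5* (106 NRPKM), *Slc38a2*, which takes up small neutral amino acids (88.5), *Slc39a13*, a zinc carrier needed for connective tissue (86.4), and *Slc35a4* of the nucleotide sugar family (63.9). Most carriers were present throughout: 88 members were at 5 NRPKM or more in all 12 libraries. The 4 group means lay within 2-fold for 101 members and within 1.5-fold for 62, and they spanned 5-fold or more for 7. The hypertrophic group had the highest mean for 51 members, the proliferative group for 37, and the resting and *aadd* groups for 27 each.

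At the filter, the third highest of the 12 values decided. Just inside were the lysosomal amino acid carrier *Slc38a9* at 5.02 NRPKM, the neutral amino acid exchanger *Slc7a8* at 5.12 and *Slc38a7* at 5.12. Just outside were *Slc22a21* at 4.90 and the thiamine carrier *Slc19a2* at 4.77.

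**Figure D1:**
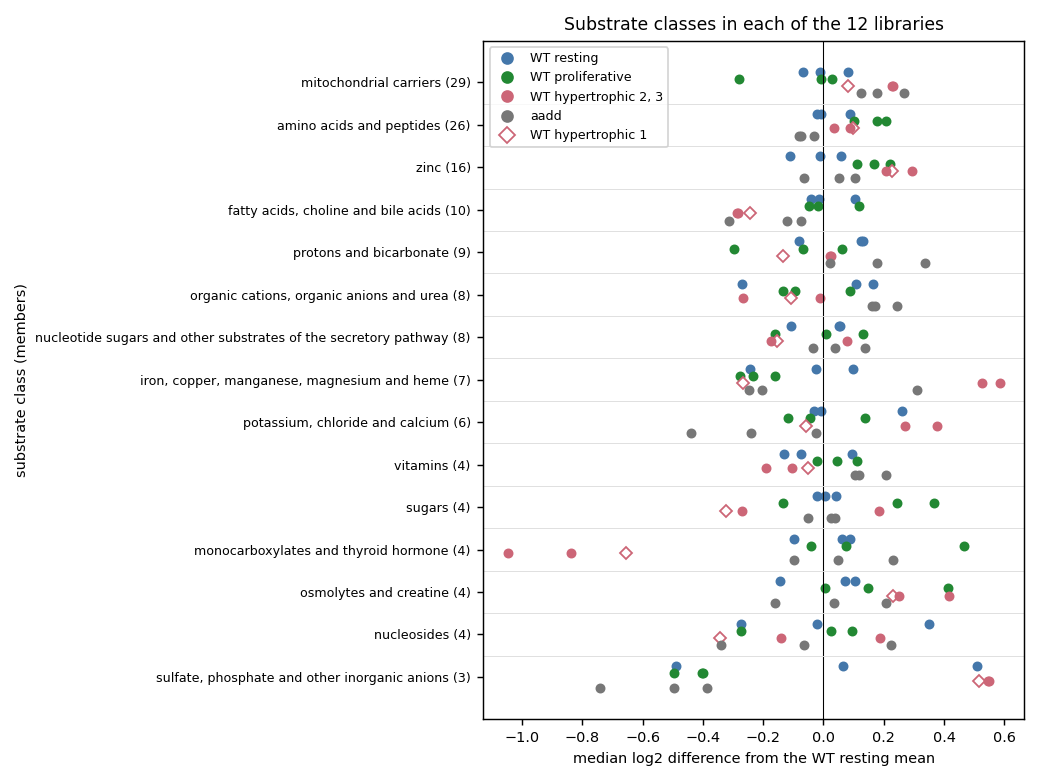
Each point is the median, over the members of a substrate class, of the log2 difference of a library from the WT resting mean, with hypertrophic replicate 1 as an open diamond. Most points lie within 0.5 of 0; the clearest shift is in the 4 carriers of monocarboxylates and thyroid hormone, at -0.66, -1.05 and -0.84 in the hypertrophic libraries, and the 7 carriers of iron and other metals are at 0.53 and 0.58 in hypertrophic replicates 2 and 3 but at -0.27 in replicate 1.

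A member was called where limma's unadjusted *P* was at most 0.05 with an FC of at least 2 between WT compartments or 1.5 between *aadd* and WT resting. These are the *P* and FC limits of the paper, and *P* adjusted over all 10936 genes tested is given beside them. For *aadd* the paper also used the Audic Claverie test on pooled reads, which found more differences than its moderated test. That test was not run here. Between WT proliferative and resting, 12 members were called, 10 higher and 2 lower, where 5.53% of all genes tested were called (2.56% higher and 2.97% lower). Only *Slc13a5* had an adjusted *P* under 0.05, a level that 0.622% of all genes reached. With the replicate number as a block, 13 were called (11 higher, 2 lower), against 6.14% of all genes (2.72% higher, 3.41% lower), and no member had an adjusted *P* under 0.05 in limma, against 0.0823% of all genes. In the fit without the block 28 members (19.7%) were at an unadjusted *P* up to 0.05, against 1865 of all genes (17.1%). The count of called members was 7 without resting replicate 2 and 6 without proliferative replicate 2. Shares of all genes for these 2 counts are not given. Between WT hypertrophic and proliferative, 13 were called, 7 higher and 6 lower, where 9.67% of all genes were (5.32% higher and 4.34% lower). None had an adjusted *P* under 0.05 in limma, nor had any other gene, while 29 members and 2115 genes were at an unadjusted *P* up to 0.05. Without hypertrophic replicate 1, 33 members were called, 18 higher and 15 lower, against 18.4% of all genes (9.79% higher and 8.56% lower), and 36 had an adjusted *P* under 0.05, against 17.4%. Between WT hypertrophic and resting, 20 were called, 9 higher and 11 lower, against 13.0% of all genes (5.84% higher and 7.2% lower), and 9 passed adjustment, against 6.36%. Without replicate 1, 30 were called, 19 higher and 11 lower, against 19.2% of all genes (9.42% higher and 9.83% lower), and 37 passed adjustment, against 24.2%. Between *aadd* and WT resting, 8 were called, 2 higher and 6 lower, against 6.56% of all genes (3.78% higher and 2.78% lower). None of these passed adjustment in limma, against 0.119% of all genes. At an unadjusted *P* up to 0.05 were 16 members (11.3%) and 1048 of all genes (9.58%). The count of called members was 19 without resting replicate 1 and 16 without *aadd* replicate 1. Shares of all genes for these 2 counts are not given. With both directions together, the shares of members called were 8.45%, 9.15%, 14.1% and 5.63%, against 5.53%, 9.67%, 13.0% and 6.56% of all genes. By direction, the shares of members called higher were 7.04%, 4.93%, 6.34% and 1.41%. Those called lower were 1.41%, 4.23%, 7.75% and 4.23%. Whether these shares differ from those of all genes was not tested. In all, 36 members were called in at least 1 comparison and 106 in none. The comparisons share their resting, proliferative or hypertrophic libraries.

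The carriers of sulfate, phosphate and other anions held 3 members, and all were called in some comparison. *Slc13a5*, whose family also carries sulfate, brings citrate into the cell with sodium. Its levels were 0.914, 2.21 and 1.13 NRPKM in the WT resting libraries, 20.4, 16.4 and 34.1 in the proliferative, 118, 60.5 and 94.3 in the hypertrophic, and 0.662, 0.457 and 0.644 in *aadd*. No compartment overlapped another, and every *aadd* library was below every WT library. The log2 FC was 3.99 (SE 0.40, adjusted *P* = 0.019) from resting to proliferative, but with the replicate number as a block the adjusted *P* was 0.072. It was 1.95 (SE 0.37, adjusted *P* = 0.12) from proliferative to hypertrophic and 5.94 (SE 0.39, adjusted *P* = 0.0015) from resting to hypertrophic, and the latter was 5.73 without hypertrophic replicate 1. As *Slc13a5* passed the filter only through its proliferative and hypertrophic values, its rise from resting is a description. From WT resting to *aadd* it fell by 1.06 on the log2 scale (SE 0.33, adjusted *P* = 0.36). On exon length, 9.6% of the exonic bases of *Slc13a5* overlap *1700051A21Rik* on the other strand, and the use of strand in counting is not given in the sources used here. Among all genes tested, 1.55% rose in this order with no overlap between the 3 WT compartments, and 2 members did, *Slc13a5* and *Slc7a8*.

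The sulfate and oxalate exchanger *Slc26a1* was lower in the proliferative and hypertrophic compartments. It was at 3.18, 7.16 and 5.46 NRPKM in WT resting, 1.85, 1.14 and 3.75 in proliferative, 1.52, 0.981 and 1.66 in hypertrophic, and 6.67, 6.25 and 4.71 in *aadd*. The resting and proliferative libraries overlapped, and the hypertrophic libraries were below all resting ones. The log2 FC was -1.28 (SE 0.48, adjusted *P* = 0.26) from resting to proliferative and -1.81 (SE 0.35, adjusted *P* = 0.038) to hypertrophic, or -1.88 without replicate 1. *Slc26a1* passed the filter only with its resting values, so these falls are a description. The sulfate carrier *Slc26a11* was steady within the hypertrophic compartment, at 9.28, 9.50 and 9.48 NRPKM, above the 4.55, 4.88 and 3.73 of the proliferative compartment (log2 FC 1.09, SE 0.18, adjusted *P* = 0.12; 0.022 without replicate 1).

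Of the 9 carriers of protons and bicarbonate, 1 was called from resting to proliferative and 1 in each direction from resting to hypertrophic. Without hypertrophic replicate 1, *Slc4a2* was called higher in both hypertrophic comparisons as well. The sodium-proton exchanger *Slc9a2* was almost absent from WT resting, at 0.0355, 0.298 and 0 NRPKM, or about 0.7, 5.0 and 0 reads. It was at 9.17, 0.763 and 4.63 NRPKM in proliferative, 31.4, 6.11 and 7.87 in hypertrophic and 0.0856, 0.434 and 0.416 in *aadd*. The hypertrophic libraries were above all resting ones and overlapped the proliferative ones, and replicate 1 was the highest. The log2 FC was 4.26 from resting to proliferative (SE 0.94, adjusted *P* = 0.12) and 6.05 to hypertrophic (SE 0.77, adjusted *P* = 0.012), or 5.33 without hypertrophic replicate 1. With so few resting reads these folds depend on the constant of 0.1 added before taking logs. The gene passed the filter only with its hypertrophic values, so its hypertrophic fold is a description. The RefSeq table holds no promoter entry for *Slc9a2*.

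*Slc9a5*, also a sodium-proton exchanger, went the other way, from 8.53, 8.49 and 6.09 NRPKM in WT resting to 3.40, 3.10 and 3.03 in hypertrophic. The groups did not overlap and the 3 hypertrophic libraries were alike (log2 FC -1.24, SE 0.20, adjusted *P* = 0.023; log2 FC -1.28 without replicate 1). *Slc4a2* exchanges chloride for bicarbonate and is used by acid-secreting cells, osteoclasts among them. It was at 44.3 and 35.4 NRPKM in hypertrophic replicates 2 and 3, at 7.75 in replicate 1 and at 6.46 to 14.9 in the other 9 libraries. From proliferative to hypertrophic its log2 FC was 1.38 (adjusted *P* = 0.31), and 2.16 without replicate 1 (adjusted *P* = 0.011). The genes of the osteoclast chloride channel, *Clcn7* and *Ostm1*, were at 24.6 and 21.3 and at 15.2 and 10.4 NRPKM in the same 2 libraries and at 4.27 and 3.78 in replicate 1. On exonic bases, 13.7% of *Slc4a2* overlap genes on the other strand.

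Of the 26 carriers of amino acids and peptides, 2 were called between proliferative and resting, both higher, 1 between hypertrophic and proliferative, 1 in each direction between hypertrophic and resting, and 1, lower, between *aadd* and WT resting. Without hypertrophic replicate 1 the hypertrophic counts were 1 higher and 4 lower against proliferative and 2 and 2 against resting. *Slc7a8* is the light chain of a neutral amino acid exchanger that pairs with *Slc3a2*. It was at 0.822, 1.25 and 0.633 NRPKM in WT resting, 1.78, 1.91 and 3.65 in proliferative, 5.12, 6.24 and 5.58 in hypertrophic and 0.669, 1.38 and 0.919 in *aadd*. The compartments did not overlap, and the *aadd* libraries overlapped with the resting ones. The log2 FC was 1.32 (SE 0.35, adjusted *P* = 0.17) from resting to proliferative and 2.56 (SE 0.26) from resting to hypertrophic, or 2.63 without replicate 1. As this gene entered through its hypertrophic values, the latter is a description.

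*Slc6a17*, a carrier of neutral amino acids known from synaptic vesicles, was the member that declined in order without overlap, as 1.71% of all genes tested did. It was at 9.46, 12.1 and 10.3 NRPKM in WT resting, 6.33, 6.89 and 6.29 in proliferative, 4.47, 3.0 and 2.70 in hypertrophic, and 15.0, 10.7 and 14.3 in *aadd*. The *aadd* libraries lay within or above the resting range. From resting to hypertrophic the log2 FC was -1.64 (SE 0.24, adjusted *P* = 0.017), or -1.85 without replicate 1. The glutamate carrier *Slc1a3* separated the mutant instead, at 11.2, 10.3 and 6.11 NRPKM in WT resting and 4.43, 4.93 and 4.89 in *aadd* (log2 FC -0.90, SE 0.25, adjusted *P* = 0.33). In the hypertrophic compartment it was at 13 in replicate 1 and at 2.96 and 3.57 in replicates 2 and 3.

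ATF4, a transcription factor that acts in chondrocyte maturation and in amino acid shortage, has well known targets among these carriers, and 7 of 9 such carriers listed were members. From resting to proliferative, *Slc6a9*, which carries glycine, was called, and the other 6 were not. *Slc6a9* was at 4.90, 3.82 and 3.38 NRPKM in WT resting and 5.53, 10.7 and 8.90 in proliferative, without overlap (log2 FC 1.0, SE 0.29, adjusted *P* = 0.19). This fold is a description, as *Slc6a9* passed the filter only with its proliferative values. Genes on the other strand share 30.2% of its exonic bases, and it was at 6.20, 1.35 and 4.47 NRPKM in hypertrophic replicates 1, 2 and 3. Like the receptor genes it was higher in replicate 1 than in the other hypertrophic libraries, though not in their order, and the part of such reads was not tested. *Slc7a1*, which carries arginine and lysine, was at 14.6, 13.5 and 15.7 NRPKM in resting and 23.8, 25.9 and 25.2 in proliferative, a separation without overlap that was under 2-fold (log2 FC 0.77, SE 0.15, adjusted *P* = 0.099). *Slc38a2* was even, at 76.2 to 112 NRPKM over the 12 libraries. *Slc3a2*, *Slc7a5*, *Slc1a4* and *Slc1a5* had log2 FC of 0.32, 0.29, -0.08 and 0.60. Of 20 tested ATF4 targets that are not carriers, none was called between these compartments, and 2, *Nupr1* and *Vldlr*, were higher in hypertrophic than in resting.

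**Figure D2:**
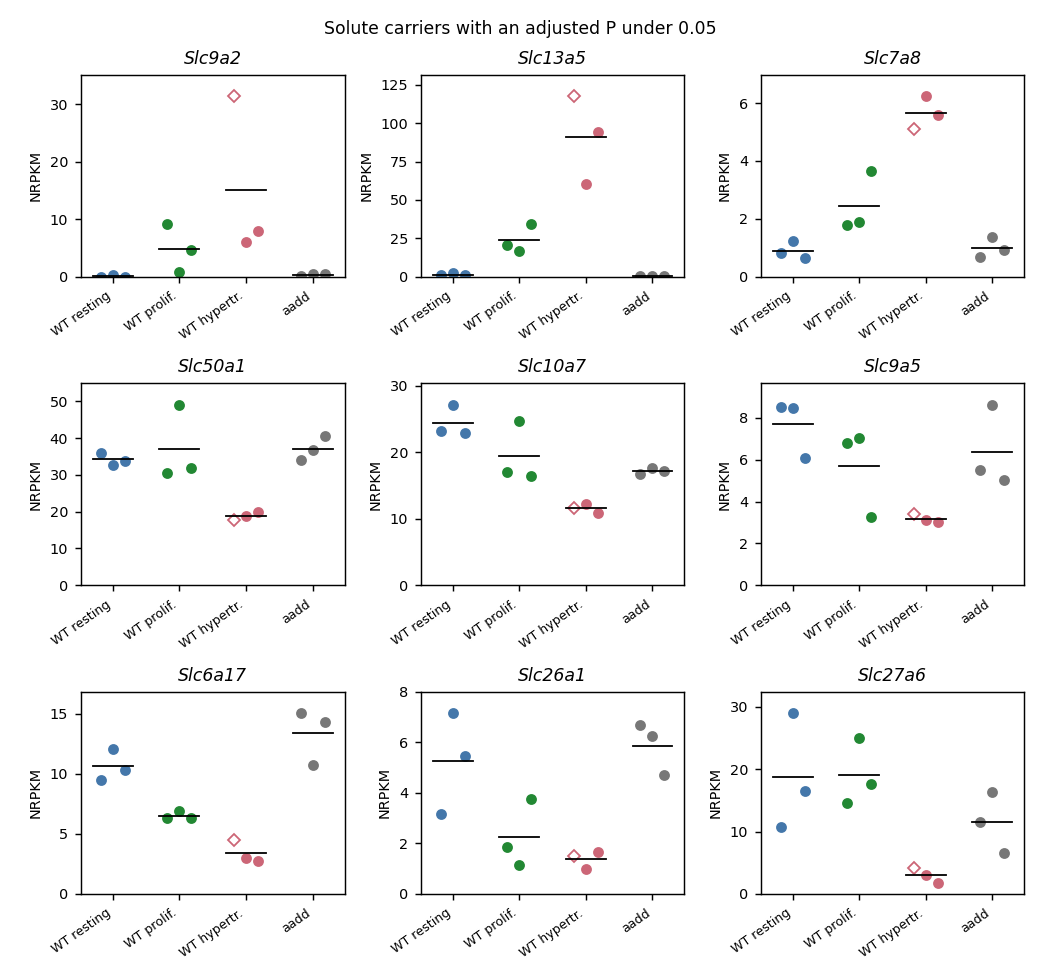
NRPKM in each library for the 9 solute carriers with an adjusted *P* under 0.05 in any comparison, with a line at each group mean and hypertrophic replicate 1 as an open diamond. The top row rises from resting to hypertrophic, the other 6 are lowest in hypertrophic, and in *Slc7a8*, *Slc10a7*, *Slc9a5* and *Slc50a1* hypertrophic replicate 1 lies with replicates 2 and 3.

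Of the 16 zinc carriers, 1 was called from resting to proliferative, 1 from proliferative to hypertrophic, none from resting to hypertrophic, and 2, both lower, in *aadd*. Without hypertrophic replicate 1, 5 were called from proliferative to hypertrophic, 4 higher and 1 lower, and 3 from resting to hypertrophic, all higher. *Slc30a2* loads zinc into vesicles. It was at 5.05, 4.64 and 4.33 NRPKM in WT resting, 4.30, 2.02 and 4.40 in proliferative, 6.66, 7.92 and 8.57 in hypertrophic and 1.19, 0.529 and 1.55 in *aadd*, or about 11.9, 4.2 and 15.8 reads in the last. Every *aadd* library was below every WT library. The log2 FC of *aadd* against WT resting was -2.11 (SE 0.35, adjusted *P* = 0.13), the largest fall of a member in that comparison, and it stayed called when each library was left out in turn, from -2.40 to -1.71. From proliferative to hypertrophic *Slc30a2* was higher by 1.16 (SE 0.33, adjusted *P* = 0.18; 0.079 without replicate 1). As it passed the filter only with its hypertrophic values, this rise is a description.

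*Slc39a14*, which imports zinc, manganese and iron, was at 36.2, 47.9 and 36.2 NRPKM in WT resting and at 22.0, 22.1 and 19.0 in *aadd*. The groups did not overlap (log2 FC -0.92, SE 0.18, adjusted *P* = 0.19), and the gene was called with each library left out. The other WT libraries were at 25.2 to 46.5. *Slc39a13*, the highest of the class, was at 59.8 to 108 NRPKM with no call in any comparison. *Slc30a8*, known from insulin granules, was at 2.58, 2.69 and 2.91 NRPKM in resting and 4.92, 6.95 and 5.56 in proliferative (log2 FC 1.05, SE 0.18, adjusted *P* = 0.085). Its fold is a description, as it passed the filter only with its proliferative values. Like the receptor genes it was low in hypertrophic replicates 2 and 3, at 1.94 and 1.06 against 5.24 in replicate 1, and the part of such reads was not tested.

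*Slc30a1*, the zinc exporter of the plasma membrane whose promoter is printed above, was at 12.1 and 10.6 NRPKM in hypertrophic replicates 2 and 3, at 2.06 in replicate 1 and at 3.22 to 6.36 in the other 9 libraries. Without replicate 1 the log2 FC from proliferative to hypertrophic was 1.30 (SE 0.24, adjusted *P* = 0.025), and with it 0.50 (adjusted *P* = 0.69). The metallothioneins, known as targets of MTF-1, were high in the same libraries. *Mt2* was at 38.9 and 39.4 NRPKM in replicates 2 and 3, at 0 in replicate 1 and at 0 to 2.91 elsewhere. *Mt1* was at 46.2 and 36.5, at 2.84 and at 0.925 to 17.3. *Mtf1* itself was at 6.45 and 7.05 in replicates 2 and 3 and at 5.02 to 9.70 in the others. The part of MTF-1 in these values was not tested. *Slc39a11* was also higher in replicates 2 and 3 (12.5 and 9.23) than in replicate 1 (2.32), and the other 9 libraries ran from 3.08 to 10.8.

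Of the 7 carriers of iron, copper, manganese, magnesium and heme, 1 was called from proliferative to hypertrophic and 1, lower, from resting to hypertrophic. Without replicate 1, *Slc31a2* and *Slc48a1* were called higher in both. *Slc31a2*, a copper carrier of endosomes, was at 8.90, 5.63 and 9.87 NRPKM in proliferative and 15.8, 25.6 and 28.5 in hypertrophic. The groups did not overlap (log2 FC 1.5, SE 0.32, adjusted *P* = 0.14; 0.019 without replicate 1), and the resting libraries, at 10.6 to 15.1, lay between. The magnesium carrier *Slc41a2* was at 8.88, 10.5 and 16.7 in resting and 3.38, 5.48 and 7.5 in hypertrophic (log2 FC -1.14, SE 0.37, adjusted *P* = 0.11), and was not called without replicate 1. Its relative *Slc41a1* was the highest of the class at 19.2 to 36.9 NRPKM. *Slc48a1*, which brings heme out of lysosomes, was at 14.6 and 20.1 in hypertrophic replicates 2 and 3, at 2.62 in replicate 1 and at 3.58 to 10.8 elsewhere. Of 8 tested genes of iron handling, 2, *Hmox1* and *Steap3*, were called higher from resting to proliferative and again from resting to hypertrophic, and 4 were in the latter without replicate 1. *Hmox1*, which breaks down heme, was at 33.7 and 16.0 NRPKM in replicates 2 and 3 and at 7.96 in replicate 1.

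**Figure D3:**
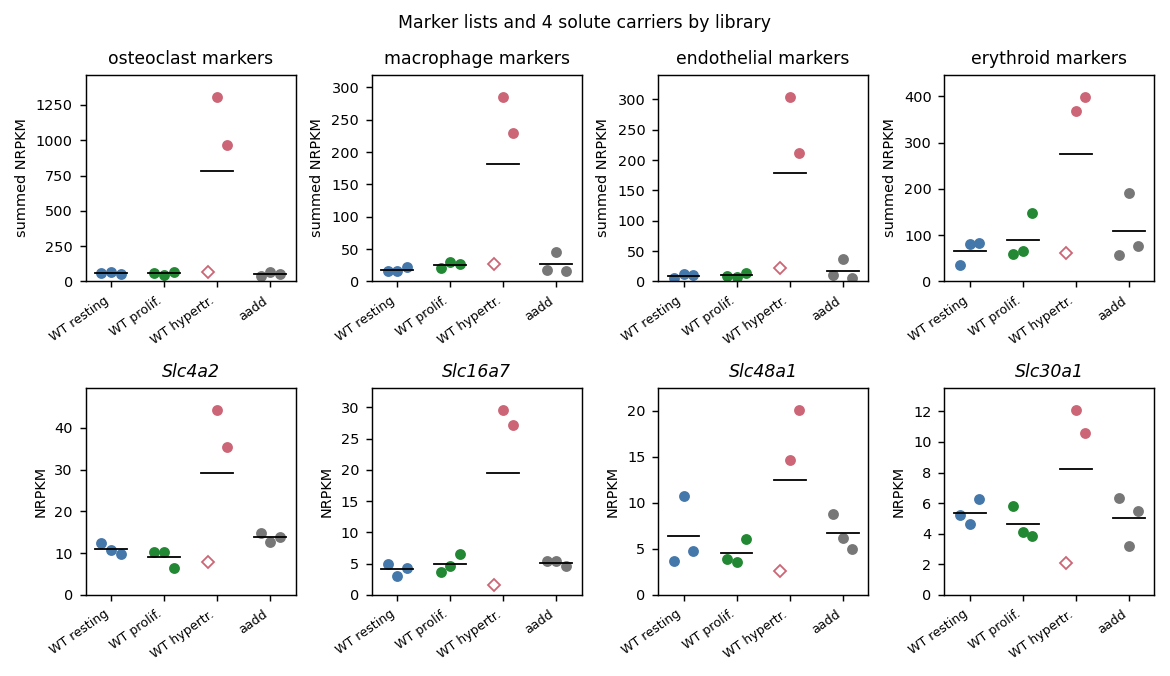
Top, summed NRPKM of the osteoclast, macrophage, endothelial and erythroid marker lists in each library; bottom, NRPKM of 4 solute carriers, with a line at each group mean and hypertrophic replicate 1 as an open diamond. In all 8 panels hypertrophic replicates 2 and 3 are the 2 highest of 12 libraries, while replicate 1 lies with the other groups or below them.

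The 29 mitochondrial carriers had median log2 FC of -0.07, 0.02 and 0.19 in the WT comparisons (proliferative against resting, hypertrophic against proliferative, hypertrophic against resting) and 0.17 in *aadd*, where those of all genes tested were -0.06, 0.04, -0.02 and 0.01. From resting to proliferative 2 were called, both higher. The citrate exporter *Slc25a1* was at 22.3, 11.6 and 13.0 NRPKM in resting and 33.0, 36.5 and 37.2 in proliferative (log2 FC 1.24, SE 0.27, adjusted *P* = 0.12). The groups did not overlap, and the hypertrophic libraries stayed at 26.1 to 30.9. *Slc25a13*, an aspartate-glutamate carrier, was at 5.08, 2.91 and 4.38 in resting, 10.9, 8.55 and 9.05 in proliferative and 8.07, 12.5 and 7.73 in hypertrophic (log2 FC 1.21, SE 0.24, adjusted *P* = 0.10 from resting to proliferative). The *aadd* libraries, at 4.92 to 6.11, were near the resting level.

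From resting to hypertrophic 4 were called higher and 1, *Slc25a27* of the uncoupling protein family, lower, and 1 was called higher from proliferative to hypertrophic. Without replicate 1, 5 were higher and 1 lower against resting, and 5 were higher against proliferative. *Slc25a5*, which exchanges ADP for ATP, was at 106, 44.7 and 55.1 NRPKM in resting, 101, 91.6 and 90.1 in proliferative and 111, 223 and 211 in hypertrophic. The hypertrophic libraries exceeded all resting ones (log2 FC 1.44, SE 0.42, adjusted *P* = 0.094; 0.028 without replicate 1), with replicate 1 close to the proliferative level. The dicarboxylate carrier *Slc25a10* was called in both hypertrophic comparisons (log2 FC 1.47 and 1.32, adjusted *P* = 0.23 and 0.15; 0.028 and 0.0068 without replicate 1), yet its replicate 1, at 5.35 NRPKM, lay within the proliferative range of 2.43 to 5.59 and the values of 16.6 and 16.7 came from replicates 2 and 3. The acylcarnitine carrier *Slc25a20* was called against resting only. It too was high in replicates 2 and 3, at 14.4 and 15.7, and at 5.09 in replicate 1, against 1.40 to 6.57 in resting (log2 FC 1.67, SE 0.66, adjusted *P* = 0.17; log2 FC 2.19 without replicate 1).

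In *aadd*, 3 mitochondrial carriers were called. The glutamate carrier *Slc25a22* was lower, at 6.24, 8.09 and 6.0 NRPKM against 11.5, 12 and 9.42 in WT resting (log2 FC -0.69, SE 0.19, adjusted *P* = 0.33). The ATP-magnesium carrier *Slc25a23* was higher, at 14.7, 16.2 and 14.9 against 8.75, 10.6 and 8.99 (log2 FC 0.69, SE 0.16, adjusted *P* = 0.25), and above all 9 WT libraries. *Slc25a40*, of the mitochondrial glutathione carriers, was higher too, at 10.2, 10.1 and 12.4 against 6.5, 8.71 and 5.76 (log2 FC 0.65, SE 0.21, adjusted *P* = 0.38). None of these 3 pairs of groups overlapped.

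The 4 carriers of monocarboxylates and thyroid hormone differed among themselves in the hypertrophic compartment. *Slc16a4*, an orphan of this family, was at 16.4, 22.4 and 29.9 in resting, 22.6, 21.1 and 26.0 in proliferative and 13.2, 5.83 and 7.12 in hypertrophic, below both compartments in every library (log2 FC -1.49 from proliferative, SE 0.33, adjusted *P* = 0.14; 0.0081 without replicate 1). The pyruvate and lactate carrier *Slc16a7* had the largest gap of all members, at 29.6 and 27.2 NRPKM in hypertrophic replicates 2 and 3, 1.63 in replicate 1 and 2.94 to 6.57 elsewhere. Its partner protein embigin (*Emb*) was at 53.6 and 51.4 in those 2 libraries, 8.34 in replicate 1 and 2.27 to 15.6 in the other 9. *Slc16a10*, which carries aromatic amino acids and thyroid hormone, was not called in any of the 4 comparisons and ran from 17 to 50.7 NRPKM.

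Of the 10 carriers of fatty acids, choline and bile acids, 3 were called lower and 1 higher from proliferative to hypertrophic, and 3 lower from resting to hypertrophic. Without replicate 1 these were 4 lower and 1 higher, and 3 lower and 1 higher. *Slc27a6*, which takes up long-chain fatty acids, was at 10.8, 29.0 and 16.4 NRPKM in WT resting, 14.5, 25.0 and 17.7 in proliferative, 4.07, 2.97 and 1.81 in hypertrophic and 11.5, 16.4 and 6.57 in *aadd*. All hypertrophic libraries, replicate 1 among them, were below all others. The log2 FC was -2.69 from proliferative (SE 0.35, adjusted *P* = 0.093; 0.0089 without replicate 1) and -2.58 from resting (SE 0.44, adjusted *P* = 0.028). *Slc10a1*, of the bile acid carriers, was at 6.36 to 8.11 NRPKM in the resting and proliferative libraries and at 4.64, 2.53 and 2.70 in hypertrophic (log2 FC -1.25 from proliferative, SE 0.27, adjusted *P* = 0.13; 0.0081 without replicate 1). *Slc10a7*, a member of the same family whose loss disturbs skeletal growth, was at 23.2, 27.2 and 22.9 in resting and 11.7, 12.2 and 10.9 in hypertrophic (log2 FC -1.07, SE 0.16, adjusted *P* = 0.020; 0.011 without replicate 1), with little spread among the 3 hypertrophic libraries.

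The choline carriers *Slc44a1* and *Slc44a2* moved in opposite directions. *Slc44a1* was at 19.8, 23.7 and 21.4 NRPKM in proliferative and 38.0, 43.8 and 52.1 in hypertrophic, without overlap (log2 FC 1.03, SE 0.19, adjusted *P* = 0.12; 0.019 without replicate 1). *Slc44a2* was at 43.7, 44.2 and 43.4 in WT resting, 68.0, 103 and 92.5 in proliferative, and 61.9, 37.7 and 30.0 in hypertrophic (log2 FC -1.07 from proliferative, SE 0.32, adjusted *P* = 0.19; 0.025 without replicate 1). From resting to proliferative it was not called. In *aadd* it was at 33.4, 30.2 and 29.4, below all resting libraries but not called.

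The 8 carriers of organic cations, organic anions and urea had a low median level, 6.21 NRPKM. *Slc17a9*, which loads ATP into vesicles, was at 0.412, 2.28 and 5.2 in resting, 5.33, 15.51 and 9.48 in proliferative, 14.2, 9.76 and 11.1 in hypertrophic and 2.52, 2.74 and 0.962 in *aadd*. The proliferative and hypertrophic libraries were above all resting ones, by a narrow margin at 5.33 against 5.2. The log2 FC was 2.33 (SE 0.86, adjusted *P* = 0.26) from resting to proliferative and 2.64 (SE 0.81, adjusted *P* = 0.10; 0.11 without replicate 1) to hypertrophic. The organic anion carrier *Slc22a8* was at 2.60, 4.51 and 3.10 in resting and 5.84, 11.1 and 10.4 in proliferative (log2 FC 1.38, SE 0.32, adjusted *P* = 0.13). Like the receptor genes above 0, it split the hypertrophic and *aadd* libraries, at 8.14 in hypertrophic replicate 1 and 2.99 and 3.06 in replicates 2 and 3, and at 3.58 in *aadd* replicate 1 and 7.52 and 6.82 in replicates 2 and 3. Their part in this difference was not tested. *Slc22a17*, a receptor for the iron-binding lipocalin 2 and the highest of the class, was lower in hypertrophic (18.1, 13.1 and 13.0) than in resting (23.9, 35.8 and 30.8), without overlap (log2 FC -1.02, SE 0.23, adjusted *P* = 0.056; 0.017 without replicate 1).

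The urea carrier *Slc14a1* was uneven within groups, at 0.593, 11.2 and 3.94 NRPKM in resting, 2.25, 21.2 and 9.62 in proliferative, 4.5, 0.603 and 0.181 in hypertrophic and 5.12, 5.09 and 3.50 in *aadd*. In both the resting and the proliferative compartment replicate 2 was the highest and replicate 1 the lowest. It was called lower from proliferative to hypertrophic (log2 FC -3.02, SE 1.22, adjusted *P* = 0.25; 0.046 without replicate 1), with the groups overlapping, and from resting to proliferative it was called only with the replicate number as a block (log2 FC 1.32).

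Of the 4 nucleoside carriers, *Slc29a1*, which equilibrates adenosine and other nucleosides, was called lower from resting to proliferative. It was at 17, 39.7 and 36.0 NRPKM in resting, 13.0, 9.16 and 19.2 in proliferative, and 5.18, 36.6 and 32.2 in hypertrophic. The resting and proliferative libraries overlapped (log2 FC -1.13, SE 0.41, adjusted *P* = 0.25), and the hypertrophic replicates fell on both sides of the proliferative range. Of the 6 carriers of potassium, chloride and calcium, only the sodium-calcium exchanger *Slc8a3* was called. It was at 20.5, 39.4 and 35.3 in WT resting, 44.6, 69.2 and 75.3 in proliferative, 93.7, 44.9 and 70.8 in hypertrophic and 16.7, 22.2 and 12.4 in *aadd*. The proliferative libraries were above all resting ones (log2 FC 1.01, SE 0.32, adjusted *P* = 0.22), and *aadd* overlapped with resting (log2 FC -0.87, SE 0.32, adjusted *P* = 0.45). From resting to hypertrophic the log2 FC was 1.13 (adjusted *P* = 0.12), and the call was lost without replicate 1.

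With all libraries in use, no member was called in 4 classes: the 8 carriers of nucleotide sugars and other substrates of the secretory pathway, the 4 of osmolytes and creatine, the 4 of vitamins and the 4 of sugars. Without hypertrophic replicate 1, *Slc35a3* of the nucleotide sugar carriers was called lower from proliferative to hypertrophic and the folate carrier *Slc46a1* higher from resting to hypertrophic. Both are named for this count, after their values were seen. *Slc46a1* passed the filter only with its hypertrophic values, so its rise is a description. The highest of these classes were *Slc35a4* (55.3 to 75.2 NRPKM over the 12 libraries), the creatine carrier *Slc6a8* (12.9 to 32.3), the ascorbate carrier *Slc23a1* (5.68 to 14.0) and *Slc50a1*. *Slc50a1*, a sugar carrier of the SWEET family, was under the FC limit but had little spread, at 35.9, 32.8 and 33.9 in resting and 17.8, 18.9 and 19.8 in hypertrophic (log2 FC -0.86, SE 0.15, adjusted *P* = 0.031; 0.017 without replicate 1).

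Set apart, hypertrophic replicate 1 and replicates 2 and 3 gave different accounts of the same carriers. Replicates 2 and 3 both exceeded replicate 1 by at least 1 on the log2 scale for 13 members and lay below it by as much for 11, while they differed from each other by that much for 3. Besides *Slc16a7*, the 8 largest gaps were *Slc14a1*, *Slc29a1*, *Slc48a1*, *Slc30a1*, *Slc4a2*, *Slc9a2* and *Slc39a11*. Against the proliferative libraries, replicate 1 alone gave 8 called members, 3 higher and 5 lower, where 4.54% of all genes were called (1.98% higher and 2.56% lower). Against the resting libraries it gave 21, 8 higher and 13 lower, where 11.5% of all genes were (4.46% higher and 7.05% lower), and 2 passed adjustment, against 0.96%. *Slc13a5*, *Slc27a6* and *Slc26a11* were called from proliferative to hypertrophic with all 3 libraries, without replicate 1 and with replicate 1 alone. From resting to hypertrophic this held for *Slc9a2*, *Slc13a5*, *Slc27a6*, *Slc26a1*, *Slc6a17*, *Slc9a5* and *Slc10a7*, and also for *Slc7a8*, which was chosen through its hypertrophic values, so that its calls are a description. *Slc9a2* also needed its hypertrophic values to pass the filter, and the same limit applies to it. *Slc26a1* needed its resting values, and *Slc13a5* passed only through the proliferative and hypertrophic compartments. Their calls against resting carry this limit too.

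**Figure D4:**
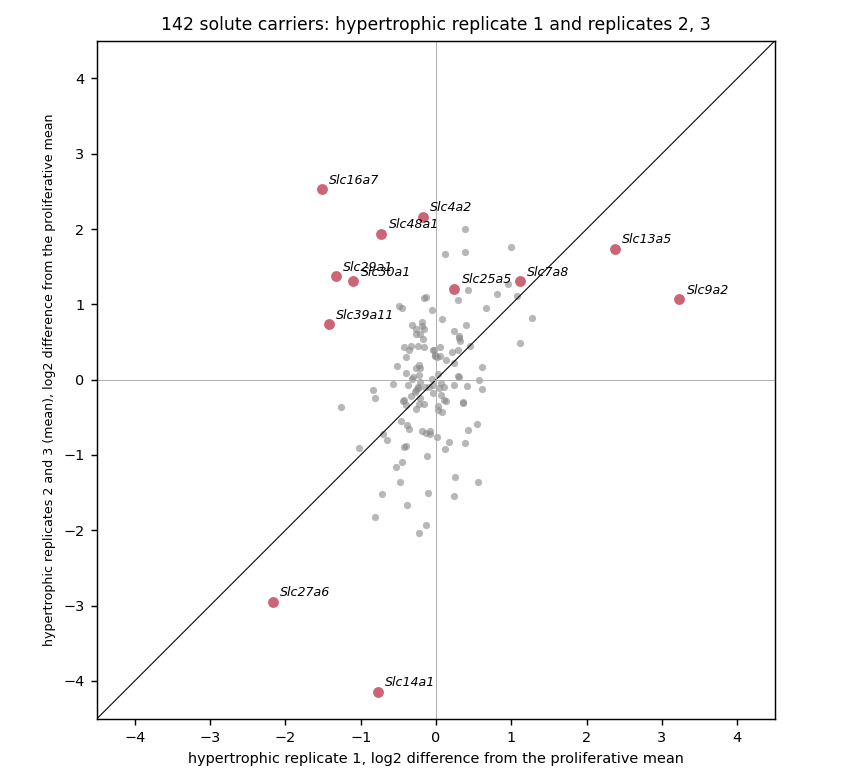
Each point is a solute carrier, placed by its log2 difference from the proliferative mean in hypertrophic replicate 1 (horizontal) and in the mean of replicates 2 and 3 (vertical), with the line of equality. *Slc13a5* (2.38 and 1.74), *Slc27a6* (-2.16 and -2.95) and *Slc7a8* (1.11 and 1.31) lie near the line, and *Slc16a7* (-1.52 and 2.53) and *Slc4a2* (-0.18 and 2.16) far from it.

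Of the 8 members called between *aadd* and WT resting, 6 stood in the order just described by class: zinc (*Slc30a2*, *Slc39a14*), mitochondrial (*Slc25a22*, *Slc25a23*, *Slc25a40*) and glutamate (*Slc1a3*) carriers. The others, *Slc13a5* and *Slc8a3*, were members that were called higher from resting to proliferative in WT. The *aadd* and resting libraries overlapped in *Slc8a3* and not in the others. As the 8 were called by *P* and FC, such separation is partly built in. The share of all genes with no overlap was not counted, and none of the 8 passed adjustment in limma. The *aadd* replicate 2 had higher macrophage, endothelial and erythroid marker sums (45.5, 37.3 and 190 NRPKM) than *aadd* replicates 1 and 3 (16.2 to 18.1, 5.15 to 10.0 and 57.3 to 77.2). All 8 members stayed called without that library.

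**Figure D5:**
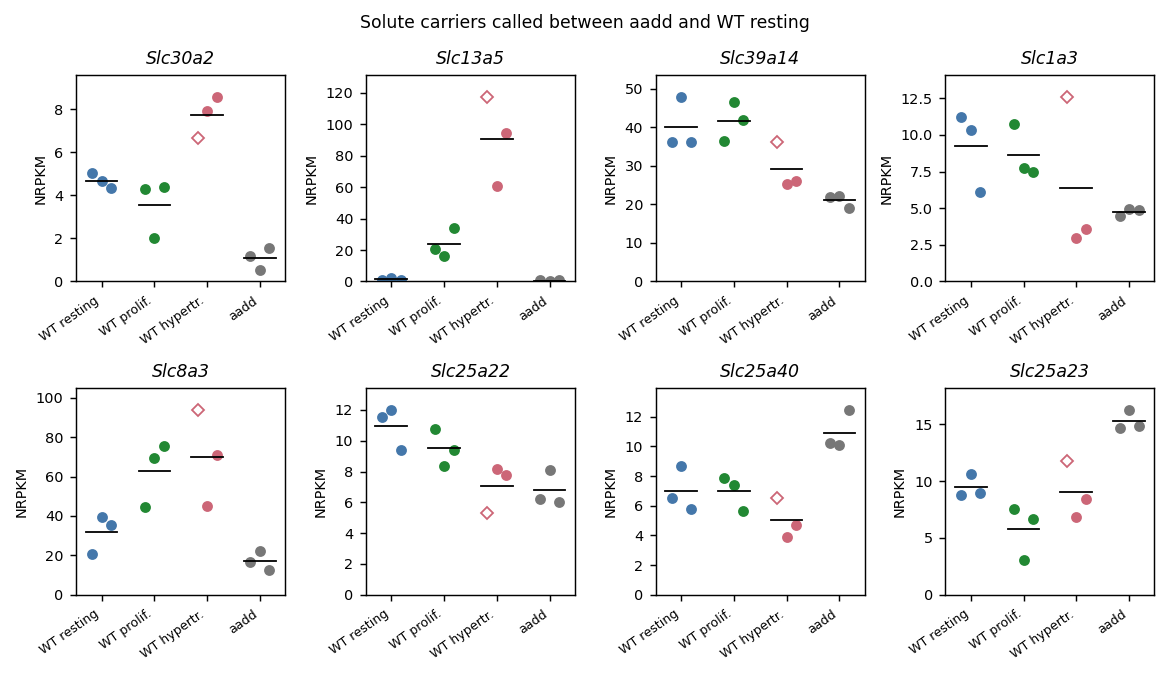
NRPKM in each library for the 8 solute carriers called between *aadd* and WT resting, with a line at each group mean and hypertrophic replicate 1 as an open diamond. In *Slc30a2*, *Slc13a5* and *Slc39a14* the *aadd* libraries lie below all 9 WT libraries, and in *Slc25a40* and *Slc25a23* above them.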

How the data were processed

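RNA-Seq values were deposited for 12 LCM libraries. Reads were filtered by the authors for quality, multiple alignment and duplication, and quantified in GeneSpring 12.6.1. The submitters' processing notes name TopHat and mm10. The deposited values are RPKM normalized further between libraries (NRPKM), and the method of that scaling and the use of strand are not given in the sources used here. Depth was estimated from 1365 receptor and keratin-associated genes with a single coding exon, whose most frequent low value was taken as 1 read, so reads are approximate and cover counting error only.

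Each comparison was a limma 3.58.1 fit (R 4.3.3) of log2(NRPKM + 0.1) to the 6 libraries of both groups with no covariate. It covered the 10936 genes that reached 5 NRPKM in 3 or more libraries. FC is on this scale and understates changes of low genes. *P* came from limma's moderated test, which sets the difference of group means against the spread between these libraries. It was adjusted by Benjamini-Hochberg over all genes tested. An exact permutation test of 3 against 3 libraries cannot go below 0.1. Tables were made in Python 3.11.15 (pandas 2.3.3, numpy 2.4.6) and plots in matplotlib 3.10.9. Gene coordinates and exon overlaps were taken from the GENCODE annotation of GRCm38. The procedure was checked on simulated data.

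Between WT proliferative and resting, libraries that shared a number deviated together from their group means across genes (*r* = 0.281, 0.178 and 0.198), so the blocked fit is given where it changes a call.

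The genes named are the 8 largest rises and falls among members called in each comparison, members with an adjusted *P* under 0.05, the highest of each class, those next to the filter, the 8 with the widest gap between hypertrophic replicate 1 and the others, and the ATF4 target carriers. Some genes that this rule names are not reported here. Genes that are no members come from marker and pathway lists. The members, classes and lists were chosen with earlier results of these data known. The alternatives tried were leaving out each library, a variance trend, the replicate block, a joint fit of the 12 libraries, quantile normalization, median-of-ratios rescaling, a minimum mean of 5 NRPKM for members, dropping the filter, and a pseudocount of 1. Replicate 1 of the hypertrophic group taken alone was chosen after seeing the data.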

Additional observations from a re-analysis of the deposited data

How the results depend on the processing

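Of 52 member and comparison pairs followed, 23 were called in every alternative named in the methods other than replicate 1 alone and 0 reversed. The number of members called was 6 to 17 from resting to proliferative when each library was left out in turn, 9 to 33 from proliferative to hypertrophic, 14 to 30 from resting to hypertrophic and 6 to 19 between *aadd* and WT resting. Shares of all genes are not given for most of these fits. A pseudocount of 1 gave 7 in place of 12 from resting to proliferative. Hypertrophic replicate 1 alone gave 8 called members against the proliferative libraries, 3 of them among the 13 called with all libraries, where the lone sample is assumed to vary like the other group. With the replicate number as a block, 13, 12, 17 and 10 members were called in the order of comparisons above. Same-numbered libraries did not all correlate over 0.1 outside the first comparison. The other alternatives kept each count within 1.5 times of that reported. Depth limits the low members: a level of 0.3 NRPKM on *Slc9a2* was about 5.0 reads.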
